A study of Mus musculus with 8 samples.

Results

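Olfactory sensory neurons send their axons from the main olfactory epithelium to the olfactory bulb, where they release glutamate. The genes described here encode the transporter that loads glutamate into synaptic vesicles and proteins that hold, dock and fuse those vesicles. They are Slc17a6, Snap25, Syt1, Stx1a, Vamp2, Syp and Sv2b, chosen by symbol for these roles, with earlier results of these data known. All 7 were found among the 21765 rows of the deposited polysome table, and all 7 were among the 16097 genes with a mean of at least 1 TPM (transcripts per 1000000) that entered the tests.

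RNA was sequenced from 2 parts of sucrose gradients loaded with whole main olfactory epithelium of mice. Early polysomes (fractions 27 to 34 of about 42) were the less dense part and late polysomes (fractions 35 to 42) the denser part. The tissue of every group was treated at dissection with 100 µg/mL cycloheximide, which stalls elongating ribosomes on their mRNAs. Wild-type (WT) mice were Mex3a flox/flox or Mex3a flox/+, and conditional knockout (cKO) mice were Mex3a flox/flox with a Cre allele, whose line is not reported here. WT mice thus carry at least 1 floxed Mex3a allele without Cre, and the labels give no age and do not say whether tissue was pooled. The series' design text speaks of sorted cells with HyperTRIBE transgenes, which the genotype labels of these 8 libraries do not list. There were 4 lysates, WT 1, WT 2, cKO 1 and cKO 2, each giving 1 early and 1 late library, so that each of the 4 groups held 2 libraries. Nothing in the labels says that lysates came from separate animals, so p-values measure only the spread between these libraries, which may be technical.

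In the presynaptic terminal, the vesicle protein VAMP2 and the plasma membrane proteins syntaxin 1 and SNAP-25 zip into the SNARE complex that drives fusion, and synaptotagmin 1 triggers that step when calcium enters. Messenger RNAs for these proteins are translated largely in the cell body, which lies in the epithelium, and the proteins are then carried along the axon. VAMP2 and syntaxin 1 are tail-anchored, held by 1 membrane segment at the end of the protein, whereas synaptophysin, SV2B and the glutamate transporter cross the membrane several times.

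The coding bases of 4 members are shown because they hold the membrane segments by which the proteins differ. Stretches were windows of 19 codons with a mean Kyte-Doolittle hydropathy of at least 1.6, taken from the highest mean down without overlap. The capitals mark the first such stretch along the coding sequence. Each run is 120 bases of the spliced coding sequence in GENCODE M21 (GRCm38), written 5′ to 3′ on the strand of the mRNA.
Vamp2: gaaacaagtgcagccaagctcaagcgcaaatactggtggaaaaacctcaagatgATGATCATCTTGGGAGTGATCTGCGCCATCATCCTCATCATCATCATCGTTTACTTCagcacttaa
Stx1a: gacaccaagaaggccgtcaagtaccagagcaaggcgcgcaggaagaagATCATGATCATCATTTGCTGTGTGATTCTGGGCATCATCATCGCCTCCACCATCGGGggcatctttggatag
Syp: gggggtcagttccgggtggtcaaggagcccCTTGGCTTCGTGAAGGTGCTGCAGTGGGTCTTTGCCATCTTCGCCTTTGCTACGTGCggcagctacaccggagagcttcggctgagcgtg
Syt1: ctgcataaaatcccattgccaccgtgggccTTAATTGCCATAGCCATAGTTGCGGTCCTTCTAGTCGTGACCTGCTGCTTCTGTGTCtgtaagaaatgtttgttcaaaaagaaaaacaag
In Vamp2 the stretch began at codon 96 and 2 codons followed it, and in Stx1a it began at codon 266 and 4 codons followed. Both runs end with the stop codon. In Syt1 the single stretch began at codon 60, with 343 codons after it. Syp held 4 such stretches, the first from codon 26, Slc17a6 held 5 and Sv2b 8, while Snap25, whose protein is attached to the membrane by lipid, held 0.

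Depth, read back from the steps of the TPM values, was 7776792 to 12771079 reads per library, and 339 to 4414 reads lay behind each member's value. The targeted gene fell as labelled: Mex3a was at 98.8 and 118.9 scaled TPM in early libraries of WT and 14.6 and 21.3 in those of cKO, against 88.9 and 90.0 (WT) and 11.0 and 13.2 (cKO) in late libraries. The genotype tag of the library at 118.9, WT early replicate 2, is that of cKO although its title says WT, and it was kept as WT. Genes of mature olfactory neurons were abundant, with a sum over 14 markers of 8217 to 13710 scaled TPM. The member Slc17a6 is among these 14 markers. Markers of olfactory bulb neurons, the cells onto which these axons synapse, summed to 37.3 to 75.2 over 9 genes.

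Along the gradient the members did not move together. Slc17a6, Syt1, Syp and Sv2b were higher in late polysomes, Vamp2 and Stx1a were lower, and Snap25 did not pass the test. On the average of both genotypes, limma called 6 of 7 members at an adjusted p under 0.05, with 4 of them higher in late polysomes and 2 lower. Of all genes tested, 68.9% passed, 34.3% higher and 34.6% lower, so a call alone sets no member apart. Within WT 6 of 7 members were called (54.8% of all genes), 5 higher and 1 lower, and within cKO 6 of 7 (58.1%), 4 higher and 2 lower. The members ran from -1.23 to 0.91 log2 with a median of 0.47, beside a median of -0.011 over all genes. Levels below are TPM scaled between libraries, which is a level per transcript length, and changes are late minus early on log2(scaled TPM + 1). Such a level is relative to the other genes of its library and does not give the amount of mRNA in a fraction.

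**Figure D1:**
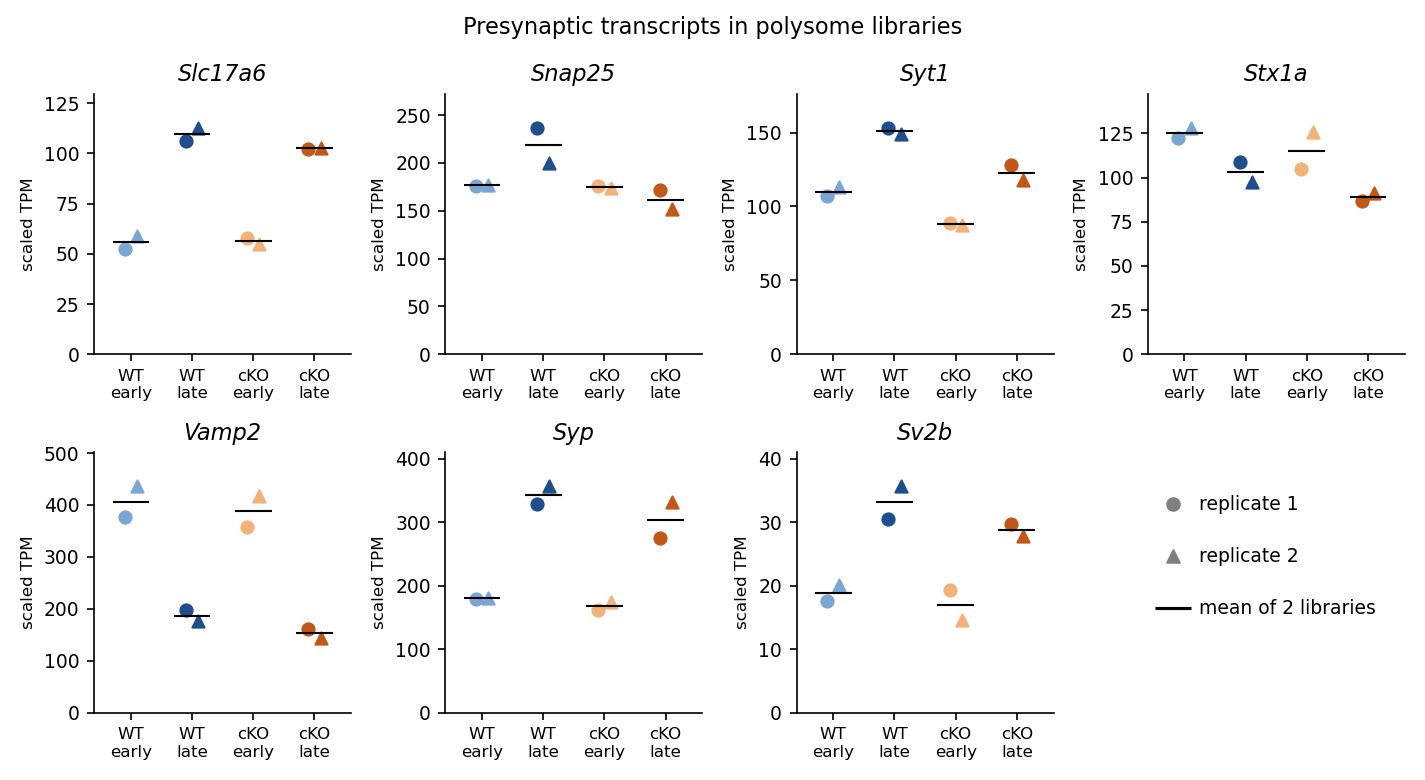
Scaled TPM (vertical axis, from 0) of each presynaptic gene in the 8 libraries, with circles for replicate 1, triangles for replicate 2 and a line at the mean of 2 libraries. Slc17a6 was at 58.8 or less in early and 102.1 or more in late libraries, while Vamp2 went from 357.8 or more to 196.9 or less.

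Slc17a6 encodes VGLUT2, the vesicular glutamate transporter of olfactory sensory neurons, and gives these neurons their transmitter. Its level was 52.5 and 58.8 in early libraries of WT and 57.8 and 54.9 in those of cKO, against 106.0 and 112.9 (WT) and 102.1 and 102.9 (cKO) in late libraries. Every late library lay above every early one. The level in late polysomes was 1.88-fold higher (log2 change 0.91, SE 0.068, adjusted p = 2.12e-05 by limma), the highest change among the members. The lysates gave changes of 1.0, 0.93, 0.81 and 0.89 (WT 1, WT 2, cKO 1, cKO 2), all in the same direction.

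Vamp2 encodes the SNARE of the vesicle itself. It was at 376.5 and 436.5 in early libraries of WT and 357.8 and 417.1 in those of cKO, against 196.9 and 176.5 (WT) and 160.6 and 144.7 (cKO) in late libraries. The early and late libraries did not overlap, and here the early ones were the high ones. The change was -1.23 (SE 0.089, adjusted p = 2.06e-05 by limma), so the level in early polysomes was 2.34-fold higher. In each of the 4 lysates the level fell, by 0.93 to 1.52 on the log2 scale.

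Stx1a encodes syntaxin 1A, the plasma membrane SNARE. Its values were 122.4 and 128.3 in early libraries of WT and 104.7 and 125.7 in those of cKO, against 108.7 and 97.6 (WT) and 86.9 and 91.5 (cKO) in late libraries. Early and late libraries overlapped when the genotypes were put together, since WT late replicate 1 lay above cKO early replicate 1, but each lysate was lower in its late library. The average change was -0.32 (SE 0.080, adjusted p = 0.00672 by limma). Within cKO it was -0.36 (adjusted p = 0.024), a call lost without cKO early replicate 2 (adjusted p = 0.157) or either cKO late library, and within WT -0.28 (adjusted p = 0.0639), which missed the threshold. The difference between those 2 changes was -0.08 (SE 0.16, adjusted p = 1.0).

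Snap25 supplies the remaining helices of the SNARE complex from a protein without a membrane-spanning segment. It was at 175.9 and 177.0 in early libraries of WT and 176.2 and 173.8 in those of cKO, against 237.0 and 199.8 (WT) and 171.2 and 151.7 (cKO) in late libraries. The early libraries of both genotypes lay close together, the late WT libraries were above them and the late cKO libraries below. Averaged over genotypes the change was 0.09 (SE 0.079, 95% interval -0.09 to 0.27, adjusted p = 0.324 by limma). In WT it was 0.30 (SE 0.11, adjusted p = 0.0477) and in cKO -0.12 (SE 0.11, adjusted p = 0.388). The WT call was lost with lysate as a replicate block (adjusted p = 0.0648) and without any 1 of the early libraries or WT late replicate 1, where the change was 0.18 (adjusted p = 0.288). On TPM as deposited the average change was 0.21 and passed (adjusted p = 0.0357), and the cKO change was 0.00769.

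Syt1 encodes synaptotagmin 1, the calcium sensor for fast release. Levels were 107.0 and 112.9 in early libraries of WT and 88.5 and 87.2 in those of cKO, against 153.4 and 149.3 (WT) and 127.9 and 118.0 (cKO) in late libraries. All late libraries were above all early ones. The level in late polysomes was 1.38-fold higher (0.47 log2, SE 0.063, adjusted p = 0.000231 by limma), and the lysates differed little, from 0.40 to 0.53. Its locus overlaps Gm5136 on the same strand, a gene at a mean of 1.24 scaled TPM.

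Syp encodes synaptophysin, among the most abundant membrane proteins of synaptic vesicles. It was at 179.6 and 181.0 in early libraries of WT and 161.6 and 174.2 in those of cKO, against 328.7 and 357.3 (WT) and 276.0 and 331.9 (cKO) in late libraries. No early library reached the lowest late library. The change was 0.88 (SE 0.081, adjusted p = 3.73e-05 by limma), or 1.85-fold. Lysate by lysate, Slc17a6 and Syp shifted alike, their changes differing by 0.02 ± 0.0829 log2 (mean ± SD, n = 4).

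Sv2b encodes a glycoprotein of the vesicle membrane related to sugar transporters, and it was the lowest of the members in every group. Its values were 17.6 and 20.1 in early libraries of WT and 19.3 and 14.5 in those of cKO, against 30.6 and 35.7 (WT) and 29.8 and 27.8 (cKO) in late libraries. Late libraries were again all above early ones. The change was 0.76 (SE 0.11, adjusted p = 0.000327 by limma), or 1.70-fold. On the opposite strand its locus overlaps 1500012K07Rik, at 0.155 scaled TPM on average.

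The order of the members by level therefore differed between the 2 parts of the gradient. Vamp2 led in early polysomes, at 406.5 ± 42.4 in WT and 387.4 ± 41.9 in cKO, and Syp led in late polysomes, at 343.0 ± 20.2 in WT and 303.9 ± 39.5 in cKO (scaled TPM, mean ± SD, n = 2 each). Below Vamp2 in WT early libraries came Syp, Snap25, Stx1a, Syt1, Slc17a6 and Sv2b. In WT late libraries the order after Syp was Snap25, Vamp2, Syt1, Slc17a6, Stx1a and Sv2b. Neighbours whose libraries overlapped were Slc17a6 and Stx1a in WT late, Snap25 and Syp in cKO early, and Snap25 and Vamp2 in cKO late libraries. Late and early libraries did not overlap for 5 members, 4 higher and 1 lower, while 62.5% of all genes tested showed no overlap (31.5% higher and 30.9% lower).

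A longer coding sequence offers room for more ribosomes, and the position on the gradient followed its length over all genes. Across 14675 genes, Spearman's rho between the late minus early change and the longest coding sequence was 0.633. This is a description across genes, which share the same 8 libraries and are not independent. The median change ran from -1.12 in the shortest decile of genes to 0.50 in the longest. Against the length of each gene's longest transcript, UTRs included, rho was 0.337.

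**Figure D2:**
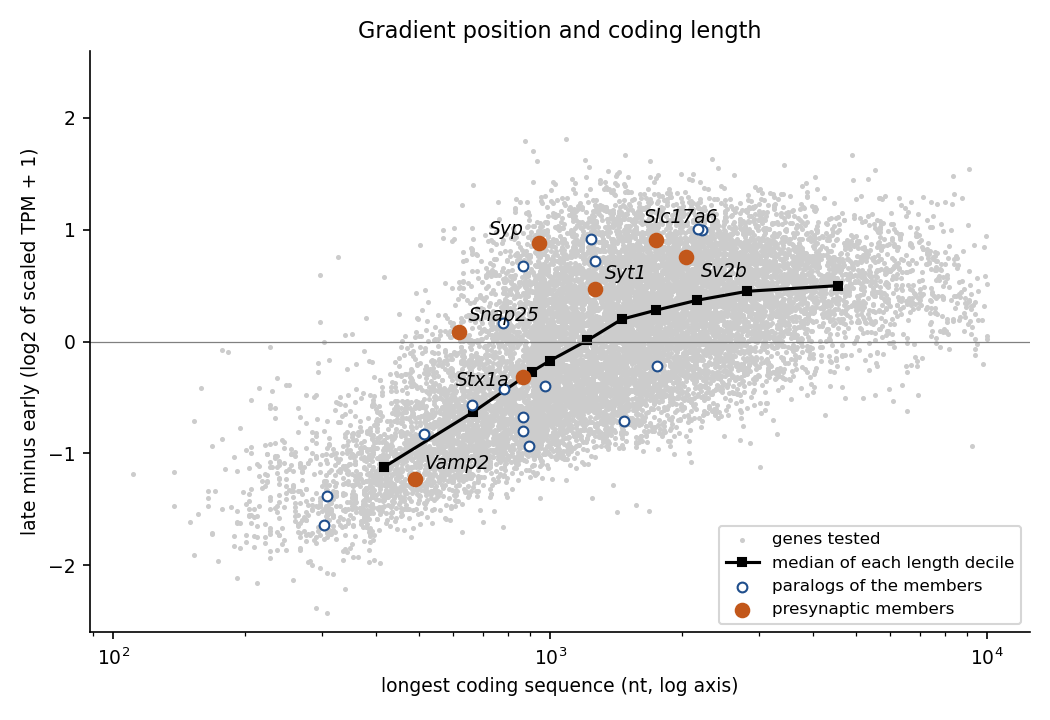
Change from early to late polysomes (log2, vertical axis) against the longest coding sequence (nt, log axis, drawn up to 10000 nt) for tested genes in grey, with the median of each length decile in black, paralogs of the members as open circles and the members in orange. Vamp2 and Stx1a sit close to the black line, and Syp lies 1.05 above the median of its decile.

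Vamp2 (GRCm38 chromosome 11, 69088490 to 69092384, plus strand) has the shortest coding sequence of the members, with 489 nt in its longest form and 348 nt in its CCDS form. Its change lay just below the median of its length decile, -1.12, and 40.0% of those genes were lower. Stx1a (chromosome 5, 135023482 to 135051100, plus strand; 864 nt) also lay at its decile's median of -0.27, with 45.6% of genes below it. These 2 members were the only members near the middle of the genes of like length. Both are tail-anchored, and whether that bears on their position was not tested.

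The other 5 members lay further into the late polysomes than most genes of their length. Syp (chromosome X, 7638471 to 7653256, plus strand; 942 nt) was above 95.3% of its decile, whose median was -0.17. Slc17a6 (chromosome 7, 51622006 to 51671119, plus strand; 1746 nt) was above 89.8%, with a median of 0.28. Snap25 (chromosome 2, 136713453 to 136782428, plus strand; 618 nt) was above 86.9% although its own change did not pass the test, since the median there was -0.63. Sv2b (chromosome 7, 75114894 to 75309262, minus strand; 2049 nt) was above 79.7%, with a median of 0.37. Syt1 (chromosome 10, 108497650 to 109010982, minus strand; 1263 nt) was above 74.0%, with a median of 0.01.

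Syp and Stx1a have coding sequences of nearly the same length and moved in opposite directions, with a difference of 1.21 ± 0.195 log2 between their changes (mean ± SD over 4 lysates). Their printed runs differ in where the membrane segment falls, near the start in Syp and at the very end in Stx1a. Over all genes with coding sequences of 600 to 1000 nt, those with a stretch only at the end had a median change of -0.49 (83 genes), those with 4 or more stretches -0.24 (820 genes) and those with none -0.46 (1724 genes). The upper quartile of the genes with 4 or more stretches was 0.05, so Syp at 0.88 was far from the middle of its class too. Only 7.56% of that class passed the test in the direction of late polysomes.

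The paralogs of the members show whether the gradient position went with the family. Of 19 paralogs, 17 passed the filter on low values. Of these, 6 were higher in late polysomes (34.3% of all genes), 9 lower (34.6%) and 2 not past the test, with a median of -0.42. Of the 7 tested paralogs with a stretch only at the end, 6 fell, from -0.67 for Stx2 to -1.64 for Vamp8, and 1 rose. Among all genes of 300 to 600 coding nt, 93.8% with a stretch only at the end were called lower, and 91.5% with none. At 600 to 1000 nt these shares were 61.4% and 58.8%.

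Among the SNARE paralogs, Stx3 changed by -0.80 and Stx4a by -0.93, both syntaxins of plasma membranes in many cell types. Vamp1 changed by -0.83, Vamp3 by -1.38 and Vamp8 by -1.64, all with coding sequences of 513 nt or less. Snap23, the broadly expressed counterpart of Snap25, fell by 0.57, and the change of Snap25 exceeded it by 0.66 ± 0.304 (mean ± SD over 4 lysates). Snap47 rose by 0.92 and Snap29 by 0.17 (adjusted p = 0.0482). Sv2a and Sv2c, at 1.00 and 1.01, rose like Sv2b. Sypl, the relative of Syp found outside neurons, fell by 0.42.

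**Figure D3:**
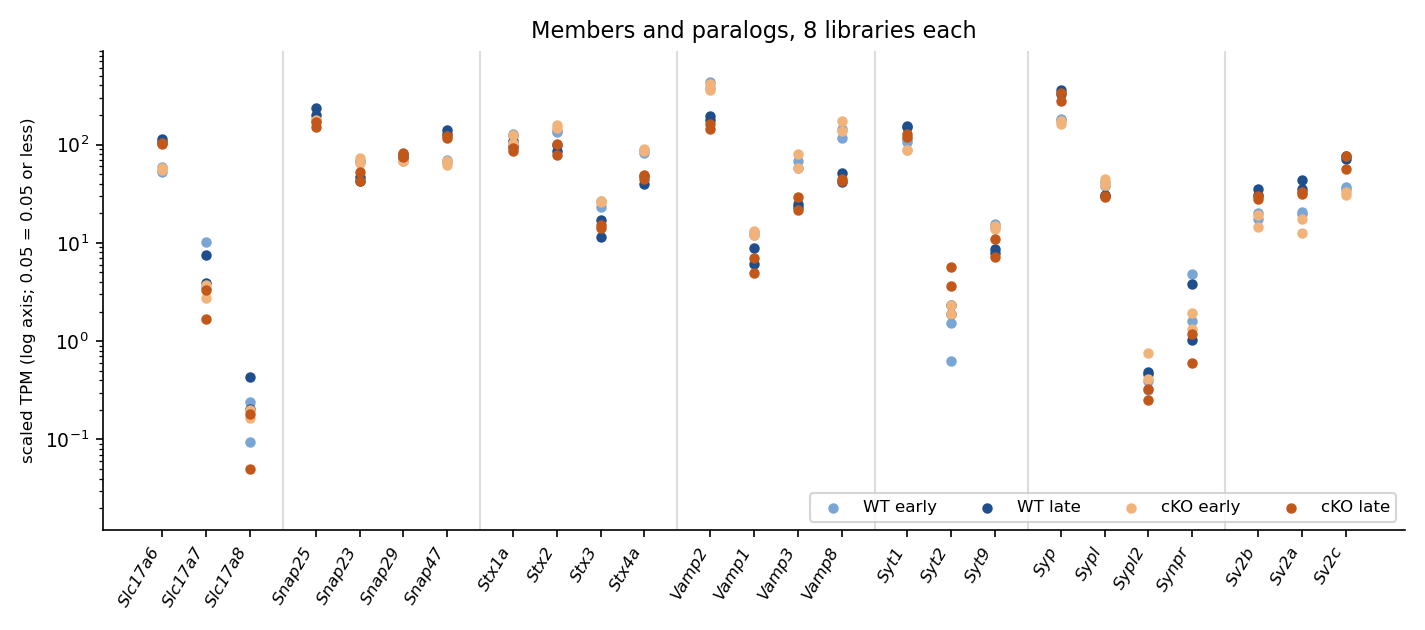
Scaled TPM (log axis) of each member, first in its block, and of paralogs of it in all 8 libraries, coloured by group; values of 0.05 or less are drawn at 0.05. Slc17a6, Snap25, Syt1, Vamp2 and Syp lie above all their paralogs in mean level, whereas Sv2c lies above Sv2b and Stx2 above Stx1a.

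By level, 1 transporter stood out in the glutamate transporter family: Slc17a6 was at 52.5 or more, Slc17a7 at 1.69 to 10.1 and Slc17a8 at 0.436 or less in every library. In the syntaxin family Stx2 averaged 117.0, Stx4a 66.2 and Stx3 20.1. Among the SV2 genes Sv2c averaged 52.1, Sv2a 26.7, and Sv2b reached 35.7 in its highest library. Syt2 averaged 2.48 and Syt9 11.7, both far below Syt1 in all libraries.

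Other genes with roles in the terminal were read from 6 lists of the release machinery, its supply and other transmitters. The libraries were of whole tissue, so the change of a listed gene is not tied to neurons. Over all genes tested, 34.3% were called higher in late polysomes and 34.6% lower. These shares are not matched to the lists by coding length, which the change followed over all genes (Spearman's rho 0.633). Of genes with 1500 to 2500 coding nt and no hydrophobic stretch, 52.5% were called higher and 15.7% lower. The part of coding length in the counts of a list was not tested. Of 21 tested genes for SNARE assembly, priming and disassembly, 7 were higher in late polysomes, 6 lower and 8 not past the test. Nsf, the ATPase that takes spent SNARE complexes apart, rose by 1.18, and Cadps, a priming factor for dense-core vesicles, by 1.00. Snapin, a SNAP-25 binding protein with 408 coding nt, changed by -1.26. Among 22 other vesicle genes 11 rose, 8 fell and 3 did not pass, led by Syt11 at 1.19 and Syn1, synapsin I, at 1.16, with Syngr2 and Rab27b both at -0.84.

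Active zone genes and calcium channels gave 10 higher, 3 lower and 9 not past the test of 22, with Cacna1b, the N-type calcium channel, at 0.96 and the scaffold gene Ppfia2 at 0.81. For vesicle endocytosis the counts were 15 higher, 4 lower and 3 not past the test of 22. Ap3b2, a neuronal adaptor subunit, rose by 1.29 and Dnm1, dynamin 1, by 1.13, while the small adaptor subunit Ap2s1 changed by -1.28 and clathrin light chain Cltb by -0.94. Their coding sequences are 3246, 2592, 426 and 687 nt, in that order. In glutamate supply 7 of 8 tested genes rose (34.3% of all genes) and 0 fell (34.6%). Among them were Glul, glutamine synthetase, at 1.17 (1119 coding nt), and Got2, mitochondrial aspartate aminotransferase, at 1.14 (1290 coding nt). Transmitter genes other than those for glutamate gave 0 higher and 1 lower of 6 tested.

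**Figure D4:**
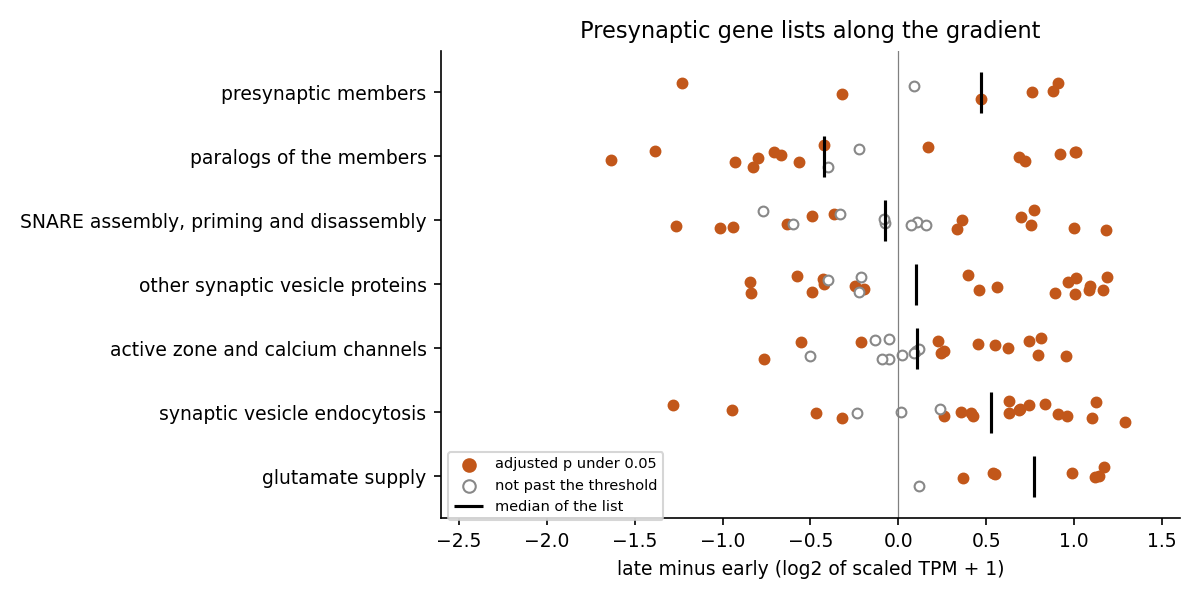
Change from early to late polysomes (log2, horizontal axis) of each tested gene in the presynaptic lists, with filled points for an adjusted p under 0.05 by limma, open points for the rest and a black line at each list's median. The members spread from -1.23 to 0.91, and glutamate supply is the list with no gene below 0.

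The genotype comparison asked whether loss of Mex3a, an RNA-binding protein gene, changed the members on polysomes. No member passed the test: 0 of 7 were called in early polysomes, where 0.0435% of all genes were called, 0 of 7 in late polysomes (0.0124%) and 0 of 7 on the mean of both libraries of each lysate (0.00621%). The interaction of genotype and fraction also called 0 of 7 (0.00621%), and voom on the inferred reads called 0 of 7 in all 4. At an unadjusted p under 0.05 there were 1, 2 and 3 members by limma in early, late and lysate comparisons, beside 6.64%, 9.36% and 11.3% of all genes. The estimates were mostly below 0, in 6 of 7 members in early polysomes and 7 of 7 in late polysomes and on lysate means, where 48.7%, 50.2% and 49.6% of all genes were below 0. The member medians were -0.10, -0.21 and -0.17. Both libraries of a lysate come from the same tissue, so these counts are not independent of one another. Because whole tissue was used, fewer neurons and less RNA per neuron cannot be told apart.

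**Figure D5:**
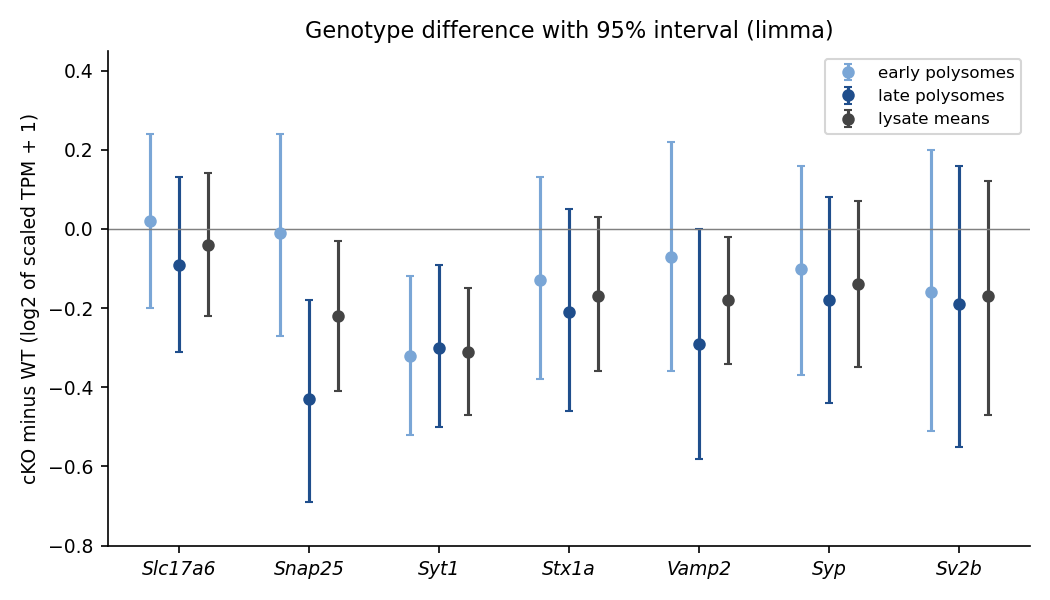
Difference between genotypes (cKO minus WT, log2, vertical axis) for each member in early polysomes, late polysomes and lysate means, with 95% intervals from limma. Syt1 lies between -0.32 and -0.30 in all 3 comparisons, and Snap25 is near 0 in early and at -0.43 in late polysomes.

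Syt1 was the member with the smallest p on lysate means, at -0.31 (SE 0.065, 95% interval -0.47 to -0.15, unadjusted p = 0.00322, adjusted p = 0.328 by limma). Both cKO early libraries, 88.5 and 87.2, lay below both WT early libraries, 107.0 and 112.9, and both cKO late libraries lay below both WT late libraries. The change was -0.32 in early (adjusted p = 0.665) and -0.30 in late polysomes (adjusted p = 0.40). The interaction of genotype and fraction was 0.02 (SE 0.13, adjusted p = 1.0). This difference did not pass the correction over all genes.

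Snap25 differed between genotypes by -0.01 in early polysomes (95% interval -0.27 to 0.24) and by -0.43 in late polysomes (SE 0.11, unadjusted p = 0.00439, adjusted p = 0.364 by limma). From early to late both WT lysates were higher and both cKO lysates lower, a pattern that 2.7% of all genes showed in one direction or the other. The late WT libraries, at 237.0 and 199.8, were both above the late cKO libraries, at 171.2 and 151.7. Vamp2 differed by -0.07 in early and -0.29 in late polysomes (95% interval -0.58 to 0.0), and by -0.18 on lysate means (unadjusted p = 0.0337, adjusted p = 0.41). Stx1a differed by -0.17, Syp by -0.14 and Sv2b by -0.17 on lysate means, each with an interval that included 0. Slc17a6 was the closest to no difference, at -0.04 (95% interval -0.22 to 0.14).

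On lysate means, 5 members (Snap25, Syt1, Stx1a, Vamp2 and Syp) had both cKO lysates below both WT lysates, as did 20.8% of all genes. In late polysomes this held for 6 members, all but Syp (20.1% of all genes), and in early polysomes for Syt1 and Syp (17.6%). With 2 libraries a group an exact permutation test cannot go below p = 0.333, so no such test was made.

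Of 115 tested genes in the 7 lists of paralogs and presynaptic genes, 0 passed the genotype test by limma in early or late polysomes or on lysate means. An unadjusted p under 0.05 by limma was reached by 20, 21 and 31 of the 115, beside 6.64%, 9.36% and 11.3% of all genes. Voom on the inferred reads called 0, 0 and 1 of the 115, the 1 being Syt4 on lysate means (adjusted p = 0.0374). Of 22 active zone and calcium channel genes, 22 were below 0 on lysate means, with a median of -0.18, where 49.6% of all genes were below 0. These genes share the same 4 lysates, and 5 of them reached an unadjusted p under 0.05 by limma. Syt4, a synaptotagmin of dense-core vesicles, had the smallest p of the lists at -0.60 (SE 0.089, unadjusted p = 0.000563, adjusted p = 0.199 by limma). Syngr2 differed by 0.38 (unadjusted p = 0.00205, adjusted p = 0.304).

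Of the markers of mature olfactory neurons, immature neurons, bulb neurons and immune cells, limma called 0 between genotypes on lysate means, with 0, 3, 2 and 3 genes at an unadjusted p under 0.05. Markers of brain or neuroendocrine neurons also gave 0 calls there, with 5 of 6 below 0. In early polysomes 1 of those 6, Nefl, was called lower (-1.86, adjusted p = 0.0318 by limma), where 0.0435% of all genes were called. Mature olfactory neuron markers had a median of -0.061, 12 of 14 below 0, and immature neuron markers a median of -0.18, 9 of 11 below 0. The member Slc17a6, at -0.04, is among those 12, so the mature neuron list is not independent of the members. Among all genes 49.6% were below 0 on lysate means, and 11.3% had an unadjusted p under 0.05 by limma. The tested bulb neuron markers had a median of -0.43, 6 of 8 below 0. Summed bulb neuron markers were 49.5 and 42.2 in WT early against 45.6 and 37.3 in cKO early libraries, and 75.2 and 64.5 in WT late against 64.7 and 56.7 in cKO late libraries. Of the 9 bulb markers, 0 were at 0 in every library. The sum of bulb markers was led by Sp8, at 19.3 to 41.4, which differed by 0.08 on lysate means. The bulb markers did not share 1 order of lysates. Gad1 was highest in WT 1, at 4.14 early and 5.10 late. Gad2, which makes the same transmitter, was highest in cKO 1, at 9.11 early and 7.56 late. Slc32a1 was highest in WT 1, at 1.34 early and 3.62 late, and lowest in cKO 2, at 0.262 early and 0.379 late. Gad1 and Slc17a7 had the same highest and lowest lysate as Slc32a1. Sp8, Gad1, Gad2, Slc32a1 and Slc17a7 were picked as examples with their values known. Summed immune cell markers were at 400.7 and 481.6 in WT early and 542.4 and 591.1 in cKO early libraries, with 1 of 9 genes below 0 on lysate means. The part of any of these cells in the differences of the members was not tested. Without lysate WT 1 the difference on lysate means was -0.32 for Syt1, -0.19 for Vamp2 and -0.16 for Snap25. It was -0.14 for Stx1a, -0.17 for Syp, -0.27 for Sv2b and -0.0993 for Slc17a6. Without lysate cKO 2 it was -0.17 for Snap25, -0.25 for Stx1a, -0.23 for Syp, -0.054 for Sv2b and -0.0206 for Slc17a6. Each of these fits leaves 1 lysate in a genotype, so they give sizes only and test no cell type.

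Genes with the pattern most like each member were taken as those with the smallest root mean square difference in log2 level, each gene centred on its own mean, over the 8 libraries and 12174 candidates. For Slc17a6 these were Stau1 (0.0418), Gas8 and Rps6kc1, and for Syp they were Plekhm3 (0.0537), Slc25a17 and Ankrd11. Vamp2 was nearest to Lin7c (0.041), Dr1 and Selt, and Stx1a to Taok1 (0.0396), Usp21 and Lztfl1. Syt1 was nearest to Tle4 (0.0588), Snap25 to Zfp654 (0.0747) and Sv2b to Sap130 (0.0546). Among the members themselves, Slc17a6 and Syp were the most alike, at 0.103, and Slc17a6 ranked 89 among the candidates by likeness to Syp.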

How the data were processed

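RNA from early and late polysomes of mouse main olfactory epithelium was sequenced in 8 libraries, prepared per the labels' protocols with a low-input stranded total RNA kit from 50 µL of each of the pooled 350 µL fractions. The authors deposited 1 table of TPM values for 21765 gene symbols, each library summing to 1000000. The submitters' processing notes name FastQC, cutadapt, STAR, DESeq2 and mm10; the counting method and annotation are not given in the sources used here. Library names tie each early library to the late library of the same lysate, and replicate numbers of WT and cKO, for which no label states a shared batch, were not treated as pairs in the main test. The correlation of deviations from group means between the early and late library of a lysate was 0.0862 in WT and 0.0502 in cKO.

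Each library's TPM was divided by its median-ratio factor (0.931 to 1.06). Tests used limma 3.58.1 in R 4.3.3 on log2 of the scaled TPM with a pseudocount of 1, which understates the change of low genes. All 16097 genes with a mean TPM of at least 1 were fitted over the 4 groups, with the prior variance following mean level. Two-sided p-values were adjusted over all genes (Benjamini-Hochberg), and calls were made at 0.05. Lysate means were fitted separately, 2 WT against 2 cKO. Whole reads were recovered from TPM steps for 100% of 19783 genes (tolerance 0.001). The recovery of reads and the tests were checked on simulated data.

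Gene positions and coding sequences came from GENCODE M21 on GRCm38, which held 96.0% of the symbols and may not be the authors' annotation. A stretch counted as at the end when it was the only one and at most 30 codons followed it. The members and gene lists were chosen with earlier results of these data known. Named from the lists were all paralogs and, per list, up to 2 rises and 2 falls with the largest change late against early among called genes with a mean scaled TPM of at least 5, and the genes with the smallest p between genotypes on lysate means; 6 listed genes were not matched in the table. Some genes that this rule names are counted in their lists but not reported here by name. Alternatives were pseudocounts of 0.1 and 0.5, quantile normalization or no scaling, no filter or a stricter one (mean TPM of 5), a constant prior variance, only the libraries compared, each library left out, replicate blocks and voom on the recovered reads. For lysate means each lysate was left out in place of each library. Figures were drawn with matplotlib 3.10.9.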

Additional observations from a re-analysis of the deposited data

Results flagged for a closer look

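The change of Snap25 from early to late polysomes went up in both WT lysates, by 0.43 and 0.17 log2, and down in both cKO lysates, at -0.04 and -0.19. This opposite movement is what drew attention to it, and 2.7% of the genes tested showed such a pattern. The interaction of genotype and fraction was -0.42 (SE 0.16, unadjusted p = 0.0278, adjusted p = 1.0 by limma), so the difference did not pass the correction over all genes, and over the alternatives its adjusted p was between 0.555 and 1.0. Groups of 2 libraries are too small for a check of single libraries that stand apart.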

How the results depend on the processing

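The number of members called was 6 or 7 of 7 for late against early on average, 5 to 7 in WT and 5 or 6 in cKO over all alternatives, and 0 in each genotype comparison and the interaction; leaving out each library in turn stayed within these ranges. With lysate as a replicate block 6 members were called on average, 5 in WT and 6 in cKO, Snap25 in WT being the member lost (adjusted p = 0.0648); the replicate block changed no other call of a member. No label says that a number marks a batch or day common to WT and cKO lysates. Deviations from group means of WT and cKO libraries with the same number correlated across genes at 0.331 in early and 0.142 in late polysomes, a hint from the data at pairing that 2 numbers cannot settle. With a replicate block by number the genotype test on lysate means called 82 genes in place of 1, 0 members and 2 list genes, Cplx1 (-1.54, adjusted p = 0.0254) and Sncb (-1.44, adjusted p = 0.0332).

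Of single members, Snap25 in WT lost its call in 9 alternatives, Stx1a in cKO in 6, and Stx1a in WT gained one in 4; on average Snap25 gained one with TPM as deposited (0.21) and quantile normalization (0.22). Directions turned only for changes that were not called. In cKO the Snap25 change was 0.00769 with TPM as deposited and 0.00487 with quantile normalization. Early genotype differences turned for Slc17a6 with TPM as deposited (-0.0359). Leaving out 1 library at a time moved that difference between -0.0611 and 0.10 for Slc17a6 and -0.26 and 0.00437 for Stx1a. For Vamp2 the range was -0.18 to 0.041 (0.0371 without WT early replicate 2), and for Sv2b -0.35 to 0.0381. The interaction then lay between -0.23 and 0.16 for Sv2b, -0.0358 and 0.0795 for Syt1 and -0.21 and 0.057 for Syp. For Stx1a the interaction lay between -0.21 and 0.0511, and for Mex3a between -0.50 and 0.0166. Leaving out 1 whole lysate at a time moved the difference on lysate means between -0.0993 and 0.027 for Slc17a6. The causes were not tested.

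Mex3a stayed between -2.81 and -2.30 in early and -2.92 and -2.67 in late polysomes, with an adjusted p of up to 0.0845 and 0.0946. Over all genes, the calls between genotypes went from 7 to between 0 and 49 in early, from 2 to between 0 and 15 in late, from 1 to between 0 and 82 on lysate means and from 1 to between 0 and 32 in the interaction. Late against early in WT called 8824 genes, and 5874 without WT early replicate 2, the library with the conflicting tag. Depth left 339 reads or more behind each member's value in every library.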

Other observations

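Complexin 1 (Cplx1) and beta-synuclein (Sncb), small proteins of the presynaptic terminal, were low in this tissue and uneven between lysates. Cplx1 was at 15.8 and 7.52 scaled TPM in early libraries of WT and 6.45 and 2.01 in those of cKO, against 8.95 and 5.51 (WT) and 1.98 and 0.97 (cKO) in late libraries. Sncb was at 24.8 and 8.77 in early libraries of WT and 6.28 and 3.89 in those of cKO, against 12.8 and 7.21 (WT) and 3.85 and 2.07 (cKO) in late libraries. For both genes lysate WT 1 was the highest of the 4 and cKO 2 the lowest in each part of the gradient. Slc17a7, the glutamate transporter of bulb projection neurons, was likewise highest in WT 1, at 10.1 early and 7.44 late, and lowest in cKO 2, at 2.75 early and 1.69 late. Gad1 and Slc32a1 had the same highest and lowest lysate in both parts, and Tbr1, Gad2, Eomes, Th, Sp8 and Tbx21 did not. Eomes and Th were lowest in cKO 2 in both parts, but highest in WT 1 only in late libraries, at 10.3 and 4.36. Tbr1 was highest in cKO 1 at 2.25 in late libraries, Gad2 in cKO 1 at 9.11 early and 7.56 late, and early Eomes was at 5.69 in WT 1 and 5.70 in WT 2. Slc17a6, the transporter of the olfactory neurons themselves, showed no such order, at 52.5 early in WT 1 and 54.9 early in cKO 2. These genes were picked for this paragraph with their values known.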
